A study of Mus musculus with 9 samples.

Results

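In whole mouse kidney, 10 genes that mark macrophages were followed. A set of 5 was listed as pan-macrophage genes (Adgre1, Csf1r, Lyz2, Cd68 and Fcrls), although Fcrls marks only some tissue macrophages, and microglia. The other 5 are used to mark lipid-associated macrophages (Trem2, Gpnmb, Lgals3, Apoe and Fabp5). The 10 genes were picked by name, and not by a threshold on their values, from a table of 56305 genes. Earlier results of these data were known when they were picked. Of the 10, 9 had counts and passed the filter on low counts, as did 15974 genes in all. Trem2 was listed at 0 in every library.

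The RNA came from 3 groups with 3 libraries each. Sham kidneys were those of wild-type (Pfkfb3 WT) littermates without injury. Injured wild-type kidneys were taken at day 14 after ischemia-reperfusion injury (IRI), made by clamping both renal arteries for 30 minutes. Injured knockout kidneys (CKO, Pfkfb3ΔPTC) were taken at the same day after the same injury, from mice in which Pfkfb3, an enzyme gene that raises glycolysis, was conditionally deleted in proximal tubular cells. The labels name neither the driver of the deletion nor the deleted exons, nor the age and sex of the mice. A knockout sham group was not analysed here. No label ties each library to its own mouse, and p-values therefore cover only the spread among these libraries, which may be technical. The series concerns Pfkfb3 in proximal tubules and fibrosis of the kidney.

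Macrophages are phagocytes that depend on signalling through the receptor encoded by Csf1r. The kidney holds resident macrophages, and monocytes that enter after injury add to them. Lipid-associated macrophages were described in fat tissue and in diseased arteries as cells that take up and store lipid. Their programme depends on TREM2, a surface receptor for lipids that signals through the adaptor encoded by Tyrobp, and it includes lysosomal, lipid-carrying and matrix-binding proteins. Several of these genes are not private to macrophages: collecting duct cells make galectin-3 (Lgals3), and melanocytes and osteoclasts make GPNMB.

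Library totals ran from 15626792 to 19987842 counts. Values are given in CPM, counts scaled to the library's TMM-adjusted total, and folds are those of an edgeR quasi-likelihood fit with p-values adjusted over all 15974 tested genes. A gene was called where the adjusted p was below 0.05. Between the injured wild-type and sham groups 4708 genes were higher and 4589 lower. Between the injured knockout and injured wild-type groups 4444 were higher and 4489 lower. With library size alone as the scale, the median log2 difference of all genes moved from 0.03 to 0.57 with injury and from -0.01 to -0.59 with the knockout. It turned the same splits into 8903 higher and 1956 lower, and 1856 higher and 9101 lower. The calls of the 9 macrophage genes in these 2 comparisons were the same under either scaling.

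Pfkfb3 itself stood at 19.97, 20.1 and 21.9 CPM in sham, 36.2, 34.4 and 25.24 CPM in injured wild-type and 25.18, 19.7 and 17.3 CPM in injured knockout libraries. It was lower in the knockout than in injured wild-type (log2 fold change -0.62, SE 0.17, edgeR adjusted p = 0.00773). Each knockout library was below each injured wild-type library, one pair of them barely, and knockout and sham libraries overlapped. Whole kidney RNA holds Pfkfb3 from cells outside the deletion, so the gene's total does not measure the deletion in proximal tubular cells.

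Promoter sequence is shown for Fcrls, Gpnmb, Lyz2 and Cd68, which had the largest injury folds among the measured members with an entry in the RefSeq promoter table (GRCm38.p6). Sequences run 5′ to 3′ on the strand of the gene, and capitals mark matches to GAGGAAG or TGACTCA on either strand. GAGGAAG is one form of the letters bound by the myeloid factor PU.1, and TGACTCA is the site of AP-1 factors. Other forms were not searched, so lower case does not show that such a site is absent. Position 0 is the transcript start in the RefSeq table.
Fcrls, chr3:87263651-87263680, minus strand, positions -156 to -127: caagtctgtaaaGAGGAAGgacgtttgctt
Cd68, chr11:69666171-69666420, minus strand, positions -250 to -1: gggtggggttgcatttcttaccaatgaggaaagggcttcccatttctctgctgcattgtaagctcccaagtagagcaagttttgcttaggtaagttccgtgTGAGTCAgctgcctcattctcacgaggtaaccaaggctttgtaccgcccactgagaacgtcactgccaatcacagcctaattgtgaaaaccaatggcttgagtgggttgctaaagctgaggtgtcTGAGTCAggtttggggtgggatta
Gpnmb, chr6:49036268-49036532, plus strand, positions -250 to 14: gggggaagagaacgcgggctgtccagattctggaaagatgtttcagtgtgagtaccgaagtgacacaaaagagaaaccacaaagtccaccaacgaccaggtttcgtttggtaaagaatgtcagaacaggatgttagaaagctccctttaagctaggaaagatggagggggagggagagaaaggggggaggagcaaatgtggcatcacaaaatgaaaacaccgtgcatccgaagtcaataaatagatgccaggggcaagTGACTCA
Lyz2, chr10:117282322-117282522, minus strand, positions -250 to -50: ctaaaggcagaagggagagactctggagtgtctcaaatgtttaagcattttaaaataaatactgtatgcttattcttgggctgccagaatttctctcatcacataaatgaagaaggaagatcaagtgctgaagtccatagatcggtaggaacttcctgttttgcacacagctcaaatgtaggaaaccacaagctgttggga
In Cd68 the TGACTCA letters lay on the reverse strand at positions -149 to -143 and -24 to -18, and in Gpnmb on the gene's strand at 8 to 14, just after the RefSeq start. The Fcrls letters lie before the RefSeq start and after the start of the gene in GENCODE. In windows of 300 bases over the starts of the 7 members searched, GAGGAAG was also found for Trem2. TGACTCA was held by 5.20% and GAGGAAG by 13.6% of the 32851 promoter windows of that length in the table. The E-box letters CACGTG and CATGTG, which MITF and its relatives can bind, were found in 7.15% and 14.2% of all windows and in none of the windows of these 7 members. The matches describe letters and say nothing of binding.

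With injury all 9 measured macrophage genes rose in the wild-type kidney, from 2.29-fold for Csf1r to 92.9-fold for Fcrls. In each of them every injured wild-type library was above every sham library. Among all tested genes 58.2% were called, 29.5% higher and 28.7% lower, and 34.5% had every injured library above every sham library. The median log2 fold change was 3.19 over the 9 and 0.03 over all tested genes.

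In the injured knockout all 9 were lower than in the injured wild-type kidney, from 1.68-fold for Fabp5 to 57.3-fold for Fcrls, with no overlap between libraries. Of all tested genes 55.9% were called there, 28.1% lower and 27.8% higher, and 32.1% had every knockout library below every injured wild-type library. The median log2 fold change was -3.44 over the 9 and -0.01 over all. The 2 comparisons share the injured wild-type libraries. In RNA of whole tissue, fewer macrophages and less of a transcript per macrophage cannot be told apart.

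**Figure D1:**
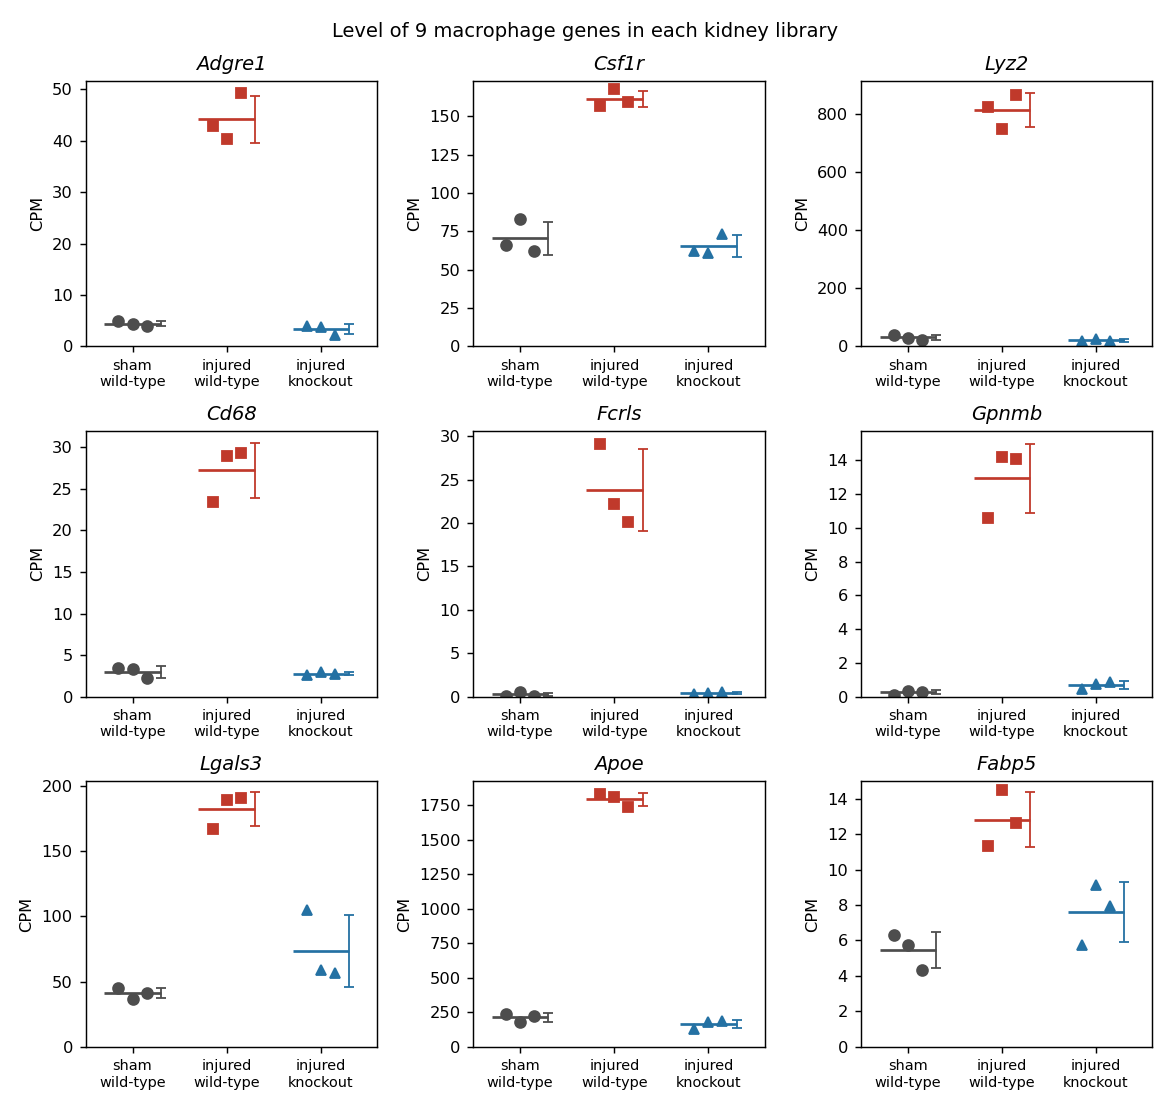
Level of 9 macrophage genes in each kidney library, in CPM after TMM scaling, on linear axes from 0. Points are libraries, horizontal lines are group means and error bars are SD (n = 3). In every panel the 3 injured wild-type libraries lie above the other 6, and Lgals3 in 1 injured knockout library, at 105 CPM, stands above the other 2 at 58.6 and 56.7 CPM.

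Adgre1 encodes the adhesion receptor that is the usual surface marker of mouse macrophages (ENSMUSG00000004730, chromosome 17, 57358691 to 57483527, GENCODE M21 on mm10). It measured 4.92, 4.42 and 4.04 CPM in sham, 42.9, 40.4 and 49.3 CPM in injured wild-type and 4.01, 3.84 and 2.20 CPM in injured knockout libraries. Every knockout library lay below every sham library, although by little beside the rise with injury. The injury fold was 9.89 (log2 fold change 3.31, SE 0.20, edgeR adjusted p = 3.02e-07). Against injured wild-type the knockout was 13.2-fold lower (log2 fold change -3.72, SE 0.21, edgeR adjusted p = 2.56e-07). The difference of -0.42 (log2, SE 0.21) between knockout and sham did not pass, with an edgeR adjusted p of 0.193.

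Csf1r encodes the growth factor receptor on which macrophages depend (ENSMUSG00000024621, chromosome 18, 61100598 to 61132149). It measured 66.4, 82.9 and 62.5 CPM in sham, 157, 168 and 159 CPM in injured wild-type and 62.5, 60.6 and 73.6 CPM in injured knockout libraries. Knockout and sham libraries overlapped. Csf1r started far above Adgre1 and rose least of the 9, by 2.29-fold (log2 fold change 1.19, SE 0.12, edgeR adjusted p = 8.77e-06). In the knockout it was 2.46-fold lower than in injured wild-type (log2 fold change -1.30, SE 0.12, edgeR adjusted p = 5.17e-06). An exon of Hmgxb3 on the opposite strand overlaps Csf1r, and the use of strand in counting is not given, so the reads of the pair cannot be told apart.

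Lyz2 encodes the lysozyme that macrophages and neutrophils secrete (ENSMUSG00000069516, chromosome 10, 117277331 to 117282321). Its level was 40.8, 30.2 and 22.4 CPM in sham, 825, 749.8 and 864 CPM in injured wild-type and 18.2, 26.2 and 17.2 CPM in injured knockout libraries. It was 39.6-fold lower in the knockout than in injured wild-type (log2 fold change -5.31, SE 0.24, edgeR adjusted p = 2.02e-07). Against sham the knockout value was -0.60 (log2, SE 0.21, edgeR adjusted p = 0.0706). That value was called with the DESeq2 Wald test (adjusted p = 0.0256), with no low-count filter in edgeR (adjusted p = 0.00110), without sham library 3 (adjusted p = 0.0428) and without knockout library 2 (adjusted p = 0.0422). The paralog Lyz1, with which Lyz2 may share reads, reached 13.2, 5.99 and 19.4 CPM in injured wild-type libraries and at most 0.351 CPM elsewhere.

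Cd68 encodes a membrane glycoprotein of macrophage lysosomes (ENSMUSG00000018774, chromosome 11, 69664213 to 69666153). It measured 3.46, 3.26 and 2.20 CPM in sham, 23.4, 28.9 and 29.3 CPM in injured wild-type and 2.63, 2.94 and 2.75 CPM in injured knockout libraries. The knockout libraries all fell within the range of the sham libraries. The rise was 9.13-fold (log2 fold change 3.19, SE 0.19, edgeR adjusted p = 3.02e-07), close in size to that of Adgre1. The knockout was 9.81-fold lower than injured wild-type (log2 fold change -3.29, SE 0.19, edgeR adjusted p = 3.43e-07).

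Fcrls encodes an Fc receptor-like scavenger protein, known in mice as a marker of microglia and of some tissue macrophages (ENSMUSG00000015852, chromosome 3, 87250758 to 87263738). Its counts were 2, 9 and 2 in sham, 634, 500 and 467 in injured wild-type and 4, 5 and 8 in injured knockout libraries. These correspond to 0.117, 0.498 and 0.119 CPM, 29.1, 22.2 and 20.1 CPM, and 0.292, 0.376 and 0.549 CPM. The gene was close to the detection limit outside the injured wild-type group, so its folds are uncertain in size. The injury fold was 92.9 (log2 fold change 6.54, SE 0.37, edgeR adjusted p = 2.44e-07), and 192 (log2 fold change 7.59) without sham library 2, which held 9 of the 13 sham counts. The knockout was 57.3-fold lower than injured wild-type (log2 fold change -5.84, SE 0.36, edgeR adjusted p = 3.79e-07). Against sham it differed by 0.70 (log2, SE 0.58, edgeR adjusted p = 0.427), or 1.73 without sham library 2.

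Of its relatives with a test, Fcrla (log2 fold change 2.69) and Fcrl1 (5.39) also rose with injury, from levels of at most 0.586 CPM in sham. Both encode Fc receptor-like proteins of B cells.

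Among the lipid-associated genes, Trem2 could not be measured (ENSMUSG00000023992, chromosome 17, 48346401 to 48354147). It had 0 counts in each of the 9 libraries. It lies within a run of 16 protein-coding genes listed at 0 in all libraries, from 48036745 to 48539714, which includes Trem1, Trem3, Treml1, Treml2 and Treml4. The run also holds Nfya, a subunit of a transcription factor used by most cells, and Oard1, an enzyme gene of wide expression. Foxp4 before the run had 7004 counts over the 9 libraries and Lrfn2 after it 25. Of 21897 protein-coding genes matched, 20.6% were at 0 in all libraries. The zeros are therefore given as listed values, without a statement on expression of Trem2.

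Tyrobp, the adaptor through which TREM2 and other myeloid receptors signal, was measured. It stood at 7.91, 5.75 and 5.11 CPM in sham, 45.7, 53.3 and 48.8 CPM in injured wild-type and 4.60, 7.68 and 5.22 CPM in injured knockout libraries. Its log2 fold change was 2.98 with injury and -3.08 in the knockout against injured wild-type.

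Gpnmb encodes a glycoprotein of lysosomes and melanosomes that lipid-laden macrophages make in quantity (ENSMUSG00000029816, chromosome 6, 49036546 to 49070929). It had 2, 6 and 5 counts in sham, 230, 319 and 327 in injured wild-type and 6, 10 and 13 in injured knockout libraries. In CPM these were 0.117, 0.332 and 0.297, then 10.6, 14.2 and 14.1, then 0.438, 0.753 and 0.893. All knockout libraries were above all sham libraries, by few counts. The injury fold was 50.4 (log2 fold change 5.65, SE 0.34, edgeR adjusted p = 3.50e-07), and the knockout was 18.4-fold lower than injured wild-type (log2 fold change -4.20, SE 0.31, edgeR adjusted p = 9.66e-07). Against sham the knockout was 2.74-fold higher (log2 fold change 1.45, SE 0.45, edgeR adjusted p = 0.0444). This last call was lost in the limma-voom fit (adjusted p = 0.143), with library size alone (edgeR adjusted p = 0.0529) and on leaving out any library but knockout library 1 (edgeR adjusted p from 0.0555 to 0.139). Gpnmb was not tested in the fit of these groups alone. Of the melanocyte markers, Tyr and Tyrp1 had no counts, and Dct and Mlana reached at most 0.176 CPM. Pmel, the fifth, had 0.643 to 1.38 CPM over the 9 libraries and was not called with injury (-0.50, edgeR adjusted p = 0.286) or in the knockout (0.17, edgeR adjusted p = 0.745). The osteoclast marker Ctsk, which macrophages can also express, had a log2 fold change of 3.87 with injury and -3.17 in the knockout. Acp5, the phosphatase of osteoclasts, was called the other way (-0.47 and 0.76), and both its calls were lost with library size alone (0.079 and 0.17).

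Apoe encodes apolipoprotein E, which carries cholesterol out of cells (ENSMUSG00000002985, chromosome 7, 19696109 to 19699188). It was the most abundant of the genes: 241, 177 and 223 CPM in sham, 1829.8, 1808 and 1741 CPM in injured wild-type and 129.6, 177 and 187 CPM in injured knockout libraries. The injured wild-type libraries differed little among themselves, with a coefficient of variation of 2.57%. The injury fold was 8.40 (log2 fold change 3.07, SE 0.17, edgeR adjusted p = 2.11e-07). The knockout was 10.9-fold lower than injured wild-type (log2 fold change -3.44, SE 0.17, edgeR adjusted p = 2.39e-07). Knockout and sham libraries overlapped, and their log2 difference of -0.37 had an edgeR adjusted p of 0.113, or 0.0399 with no low-count filter.

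Fabp5 encodes a fatty acid binding protein of many cell types (ENSMUSG00000027533, chromosome 3, 10012548 to 10016607). It measured 6.33, 5.75 and 4.34 CPM in sham, 11.3, 14.5 and 12.6 CPM in injured wild-type and 5.77, 9.11 and 7.97 CPM in injured knockout libraries. Of the 9 genes it had the smallest difference between the injured groups. It rose 2.34-fold with injury (log2 fold change 1.23, SE 0.21, edgeR adjusted p = 0.000370), and the knockout was 1.68-fold lower than injured wild-type (log2 fold change -0.75, SE 0.21, edgeR adjusted p = 0.00846). Its relative Fabp3, with 25.8 to 59.0 CPM over all libraries, was not called with injury and was higher by 0.58 (log2) in the knockout against injured wild-type, and the annotated retrocopy Fabp5l2 had 0 counts.

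Lgals3 encodes galectin-3, a sugar-binding protein of macrophages and of collecting duct epithelium (ENSMUSG00000050335, chromosome 14, 47367751 to 47386160). It measured 45.0, 36.9 and 41.5 CPM in sham, 167, 189 and 191 CPM in injured wild-type and 105, 58.6 and 56.7 CPM in injured knockout libraries. Unlike most of the 9, every knockout library was above every sham library, as for Gpnmb. The injury fold was 4.43 (log2 fold change 2.15, SE 0.21, edgeR adjusted p = 6.31e-06), and the knockout was 2.48-fold lower than injured wild-type (log2 fold change -1.31, SE 0.20, edgeR adjusted p = 0.000204). Against sham the knockout was 1.78-fold higher (log2 fold change 0.84, SE 0.20, edgeR adjusted p = 0.0202). That call was lost without sham library 2 (edgeR adjusted p = 0.0918) or sham library 3 (edgeR adjusted p = 0.0663), and the value was 0.49 (edgeR adjusted p = 0.0205) without knockout library 1.

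Knockout library 1, the high one for Lgals3, also stood apart in epithelial markers. The summed level of 8 intercalated and collecting duct markers was 2297 CPM there, 1124 and 1111 CPM in the other knockout libraries, 839 to 999 CPM in sham and 534 to 875 CPM in injured wild-type libraries. Of these Aqp2, the water channel of the collecting duct, measured 1433 CPM in that library against 476 and 535 CPM. The summed level of 8 injured tubule markers was 535 CPM there, 372 and 370.4 CPM in the other knockout libraries, 269 to 300.5 CPM in sham and 1445 to 2052 CPM in injured wild-type libraries. The podocyte gene Nphs1 was at 4.74 CPM in that library and at 29.0 and 35.4 CPM in the other 2. The part of these differences in the level of Lgals3 was not tested.

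**Figure D2:**
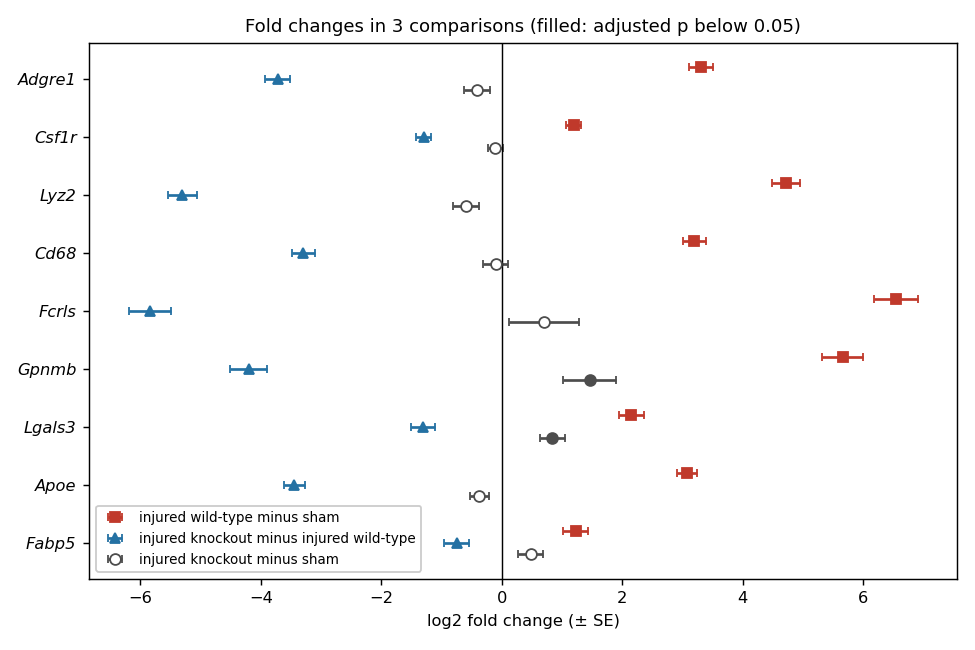
Fitted log2 fold changes of 9 macrophage genes with their standard errors in 3 comparisons of kidney groups. Filled symbols have an edgeR adjusted p below 0.05. All 9 genes lie to the right of 0 with injury and to the left of 0 in knockout against injured wild-type, while against sham Gpnmb (1.45) and Lgals3 (0.84) alone are filled.

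Between injured knockout and sham kidneys, which differ in both genotype and injury, 2 of the 9 genes were called higher (Gpnmb and Lgals3), 0 lower, and 7 were not called. Among all tested genes 17.6% were called, 8.13% higher and 9.48% lower. Every knockout library was above every sham library in 18.4% of them and below in 17.8%. At an unadjusted p below 0.05 in edgeR, 3 were higher and 2, Lyz2 and Apoe, lower. As lower, the DESeq2 Wald test called 1 gene, Lyz2, and limma-voom 0, while limma-voom called 1 gene, Lgals3, higher. At the same adjusted threshold the count of called genes was 4 with no low-count filter, where Lyz2 and Apoe were called lower as well, and from 0 (without sham library 2) to 2 on leaving out 1 library. Without knockout library 1 the counts were 9 higher with injury, 9 lower in the knockout against injured wild-type and 2 higher against sham. A difference that was not called is not shown to be absent: the standard errors of the 7 ran from 0.12 for Csf1r to 0.58 for Fcrls on the log2 scale.

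The share of the injury rise that was missing from the knockout gives the same values on a linear scale. It is the difference between the injured groups' mean CPM over the difference between injured wild-type and sham, and has no test because both differences use the same injured wild-type libraries. Wild-type sham stood in for the starting level of the knockout, since no knockout sham group was analysed. The SD leaves out the spread of the sham and injured wild-type libraries, whose means were held fixed. The share was 103% ± 2.52 for Adgre1, 106% ± 7.71 for Csf1r, 101% ± 0.628 for Lyz2 and 101% ± 0.641 for Cd68 (SD over 3 knockout libraries). It was 99.3% ± 0.557 for Fcrls, 96.5% ± 1.84 for Gpnmb and 103% ± 1.95 for Apoe. The share was lower and spread more for Lgals3, at 77.1% ± 19.4, and for Fabp5, at 70.8% ± 23.1.

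The genes did not move by equal amounts. Relative to Adgre1 in the same library, Csf1r was at a mean of 15.9 times the CPM in sham, 3.68 times in injured wild-type and 21.6 times in injured knockout libraries. Lyz2 was at 6.88, 18.4 and 6.40 times the CPM of Adgre1, in the same order of groups. Lgals3 was at 9.26, 4.15 and 22.4 times, and Fabp5 at 1.22, 0.293 and 2.48 times. For these 4 genes no injured wild-type library overlapped a sham or a knockout library, so their rises with injury were either larger than that of Adgre1 (Lyz2) or smaller (Csf1r, Lgals3 and Fabp5) in every library.

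Fcrls also had no overlap, with mean log2 ratios to Adgre1 of -4.54 in sham libraries, -0.91 after injury in wild-type and -3.04 after injury in knockout mice. Gpnmb had mean log2 ratios of -4.30, -1.78 and -2.28, without overlap between sham and injured wild-type and with overlap between the injured groups. With 3 libraries against 3 a 2-sided exact permutation test cannot go below 0.1, and each ratio without overlap had this smallest p (0.145 adjusted over 16 tests).

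For Cd68 and Apoe the libraries of the groups overlapped in their ratio to Adgre1, which does not show that the ratio was unchanged. The mean log2 ratio of Cd68 was -0.61, -0.70 and -0.23 over the groups in the same order, with exact permutation p of 0.8 with injury and 0.2 in the knockout. That of Apoe was 5.57, 5.35 and 5.65, with exact permutation p of 0.3 and 0.7. On leaving out 1 library the knockout difference of Apoe ranged from -0.076 to 0.62. Set against the mean of Adgre1, Csf1r and Cd68 in place of Adgre1, Cd68 and Apoe had injury differences of 0.64 and 0.51 and knockout differences of -0.50 and -0.67 (log2, exact permutation p = 0.1 for each). That reference contains Cd68 itself, and Csf1r, whose smaller change than that of Adgre1 enters each of these values. They are therefore not read as a separate result on Cd68 or Apoe.

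**Figure D3:**
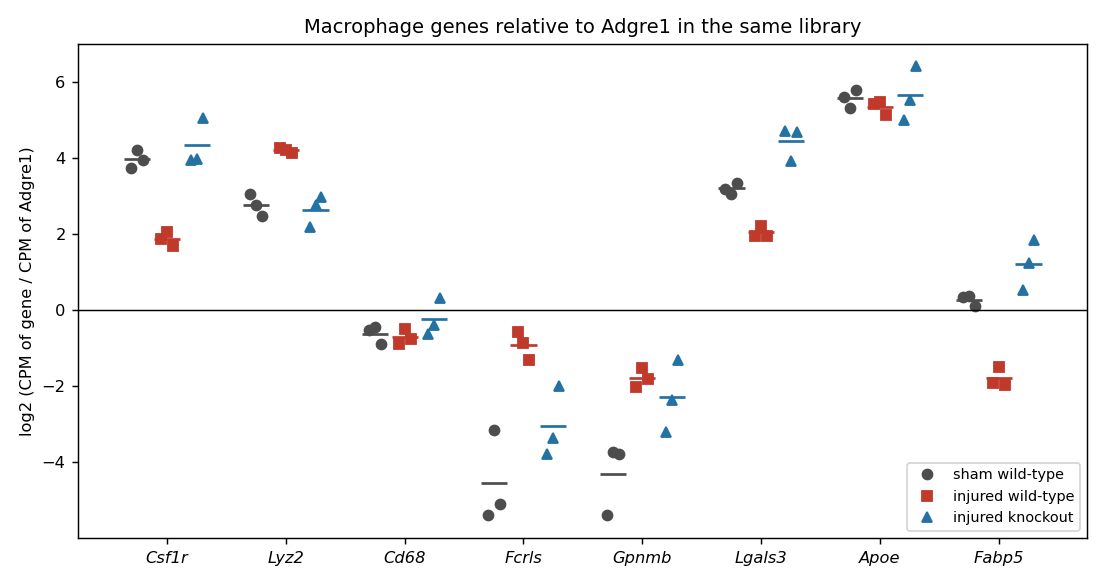
Log2 ratio of the CPM of each gene to that of Adgre1 in the same library, for 8 genes. Points are libraries and lines are means of 3. Injured wild-type libraries lie below the others for Csf1r, Lgals3 and Fabp5, above them for Lyz2 and Fcrls, and among them for Cd68 and Apoe.

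Levels were compared between genes per kilobase of exon (RPKM), with the union of all annotated exons as the length. For Fabp5 this union was 3567 bases in 2 blocks, which is most of the gene's span. Its RPKM may therefore be too low, and its place in each order below depends on that length. In injured wild-type kidney the order was Apoe (838.7 RPKM), Lyz2 (618), Lgals3 (98.1), Csf1r (27.9), Cd68 (21.7), Adgre1 (13.6), Fcrls (10.2), Fabp5 (3.59) and Gpnmb (1.98), and no neighbours in it overlapped between libraries. In sham kidney the order was Apoe (99.8 RPKM), Lyz2 (23.6), Lgals3 (22.2), Csf1r (12.2), Cd68 (2.37), Fabp5 (1.53), Adgre1 (1.38), Fcrls (0.105) and Gpnmb (0.0382). There Lyz2 overlapped Lgals3, Cd68 overlapped Fabp5, Fabp5 overlapped Adgre1, and Fcrls overlapped Gpnmb. In injured knockout kidney Lgals3 (39.5 RPKM) stood above Lyz2 (15.6) in every library, which was the reverse of injured wild-type. Apoe (77.1 RPKM) stayed highest, and Gpnmb (0.107) and Fcrls (0.174) overlapped at the low end.

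By the root mean square difference of centred log2 CPM over the 9 libraries, 5 genes were most like Adgre1 among 11215 candidates. They were Slc25a24 (0.238), Ncf1 (0.238), Slc7a2 (0.243), Stx11 (0.258) and Ptpn22 (0.264), against a median of 1.73 over all candidates. For Gpnmb the nearest were Htra3 (0.370), the collagen gene Col3a1 (0.412), the macrophage lectin Siglec1 (0.449), the collagen gene Col1a1 (0.461) and Mfap2 (0.536), against a median of 2.31. These values describe the same 9 libraries in 3 groups, and genes with the same group means come out alike.

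For the lists of related genes, log2 fold changes are given with injury and then in the knockout against injured wild-type. Counts of called genes stand beside the shares over all tested genes. These were 29.5% higher and 28.7% lower with injury, and 28.1% lower and 27.8% higher in the knockout. The standard errors of the genes named by rule ran from 0.088 to 0.65, with a median of 0.20, and a gene said to have moved was called. Genes around the CSF1 receptor moved with the macrophage genes. Of 7, 6 were called higher with injury and 6 lower in the knockout against injured wild-type, with medians of 2.32 and -1.96 (log2) against 0.03 and -0.01 over all tested genes. Il34, a ligand of the receptor that tubular cells make, rose by 0.97 with injury and fell by 0.99 in the knockout, although it stood at 72.6 CPM in knockout library 1 and at 40.9 and 30.0 CPM in the other knockout libraries. The injury call of Il34 was lost without sham library 1 (0.85, edgeR adjusted p = 0.0585) or injured wild-type library 2 (0.74, edgeR adjusted p = 0.0573), and its knockout call without the latter (-0.75, edgeR adjusted p = 0.0546). Csf1, the other ligand, stood at 11.3 to 21.7 CPM in sham, 68.4 to 94.9 in injured wild-type and 8.32 to 12.6 in injured knockout libraries. Maf, a transcription factor gene of macrophages that proximal tubules also express, went against the list with -1.03 in injury, -0.14 in the knockout (edgeR adjusted p = 0.584) and -1.17 in the knockout against sham.

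All 9 genes of TREM2 and DAP12 signalling were called higher with injury and 8 lower in the knockout, with medians of 2.53 and -3.08. They include the kinase gene Syk (2.82 and -3.22). The sheddase genes Adam10 (0.56 and -0.94) and Adam17 (0.62 and -0.69), which most cells express, moved less. Plcg2 rose by 0.42 and was not called in the knockout (0.09, edgeR adjusted p = 0.655). Trem2 was not measured and other myeloid receptors also signal through Tyrobp, so the list does not single out signalling by TREM2.

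Of 17 other genes of lipid-associated macrophages, 10 were called higher and 3 lower with injury, and 7 lower and 4 higher in the knockout against injured wild-type. Spp1, osteopontin, which injured tubules also make, measured 389, 321 and 348 CPM in sham, 9016, 10559 and 10616 CPM in injured wild-type and 1037, 530.2 and 406 CPM in injured knockout libraries. Itgax (3.12 with injury and -3.49 in the knockout) and Clec7a (4.15 and -4.36), receptor genes of myeloid cells, moved the same way. The lipid uptake and hydrolysis genes Lpl (-2.28 and 2.11), Cd36 (-2.58 and 1.99) and Lipa (-1.34 and 0.78), which kidney epithelium also expresses, moved the other way, although the knockout value of Lipa was 0.20 (edgeR adjusted p = 0.349) with library size alone. Cd63 was called higher in the knockout by 0.35, which turned to -0.23 with library size alone. Between knockout and sham, 8.13% of all tested genes were called higher and 9.48% lower. Against sham, 5 of the 17 were called higher in the knockout, among them Spp1 (0.90) and Ctsd (0.40), and 1, Ch25h, lower (-1.70). Without knockout library 1 the count called higher was 3, and the value of Spp1 was 0.41 (edgeR adjusted p = 0.124). The calls of Spp1 and Ch25h were each lost in 10 of the alternatives, limma-voom and the replicate block among them, and that of Ctsd in 5.

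Cholesterol genes were called in both directions. Of 10, 5 were higher and 4 lower with injury, and 6 lower and 3 higher in the knockout. Over all tested genes 29.5% were higher and 28.7% lower with injury, and 28.1% lower and 27.8% higher in the knockout. The efflux transporters Abca1 (1.77 and -2.03) and Abcg1 (1.82 and -2.30) and the transfer protein gene Pltp (2.55 and -2.67) moved with Apoe. Npc2, for lysosomal cholesterol export, moved less (0.51 and -0.47). Nr1h3 (-0.93 and 1.05) and Nr1h2 (-0.37 and 0.60), the LXR receptor genes, and Nceh1 (-1.56 and 0.99), a cholesterol ester hydrolase gene, moved the other way. With library size alone the injury value of Nr1h2 turned to 0.18 and its knockout value was 0.020. Mylip was called lower in both comparisons (-0.68 and -0.63). Its injury call was lost with library size alone (-0.15, edgeR adjusted p = 0.532) and without sham library 2 (-0.39, edgeR adjusted p = 0.0573).

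Of 7 genes of the MITF family and its regulators, 2 were called higher and 2 lower with injury, and 2 in each direction in the knockout. These shares are close to those over all tested genes, given above, and show nothing particular to the list. Mitf (0.75 with injury and -0.44 in the knockout) and Tfe3 (0.68 and -0.72) moved in the direction of Gpnmb. Tfec (-0.58 and 0.38), another member of the family, and Fnip2 (-1.27 and 0.90), a regulator of it, moved the other way. The knockout value of Fnip2 was 0.32 (edgeR adjusted p = 0.106) with library size alone. Tfeb was not called in either comparison (0.16 and 0.29).

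Markers of other cells of the kidney moved as well. For these and the tubule markers below, the shares over all tested genes were 29.5% higher and 28.7% lower with injury. In the knockout they were 28.1% lower and 27.8% higher. Of 10 resident macrophage markers 9 were called higher with injury and 9 lower in the knockout, with summed levels of 137 to 165 CPM in sham, 814 to 994 CPM in injured wild-type and 112 to 152 CPM in injured knockout libraries. C1qa (3.41 and -3.37) and C1qb (3.15 and -3.24) led them by level. Mertk, a receptor for dying cells, fell by 0.62 with injury, and by 0.077 (edgeR adjusted p = 0.648) with library size alone. It was called higher by 0.35 in the knockout, and this value turned to -0.23 with library size alone and lost its call under DESeq2 size factors. All 7 dendritic cell markers were called higher with injury and all 7 lower in the knockout (97.2 to 109 CPM summed in injured wild-type, 22.7 to 35.8 in sham and 13.1 to 24.2 in injured knockout). Among them were the lectin gene Clec10a (3.66 and -4.22) and the transcription factor gene Zbtb46 (0.82 and -1.16), whose injury call was lost under the replicate block and in 4 of the fits without 1 library. Of the 4 tested neutrophil markers 2 were called higher with injury and 4 lower in the knockout, with Csf3r at 2.57 and -3.27. With 4 tested, the injury count is not read as a result about neutrophil markers.

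Proximal tubule markers ran the other way: 8 of 8 were called lower with injury and 8 of 8 higher in the knockout, with sums of 15093 to 16996 CPM in sham, 2757 to 4213 CPM in injured wild-type and 14238 to 16184 CPM in injured knockout libraries. The phosphate transporter gene Slc34a1 (-2.03 and 1.91) and Miox (-1.94 and 2.43) had the highest levels. Injured tubule markers were called higher with injury in 8 of 8 and lower in the knockout in 7 of 8, among them the adhesion molecule gene Vcam1 (4.47 and -4.41) and the keratin gene Krt8 (1.32 and -0.91). The part that other cells have in the levels of the macrophage genes was not tested.

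**Figure D4:**
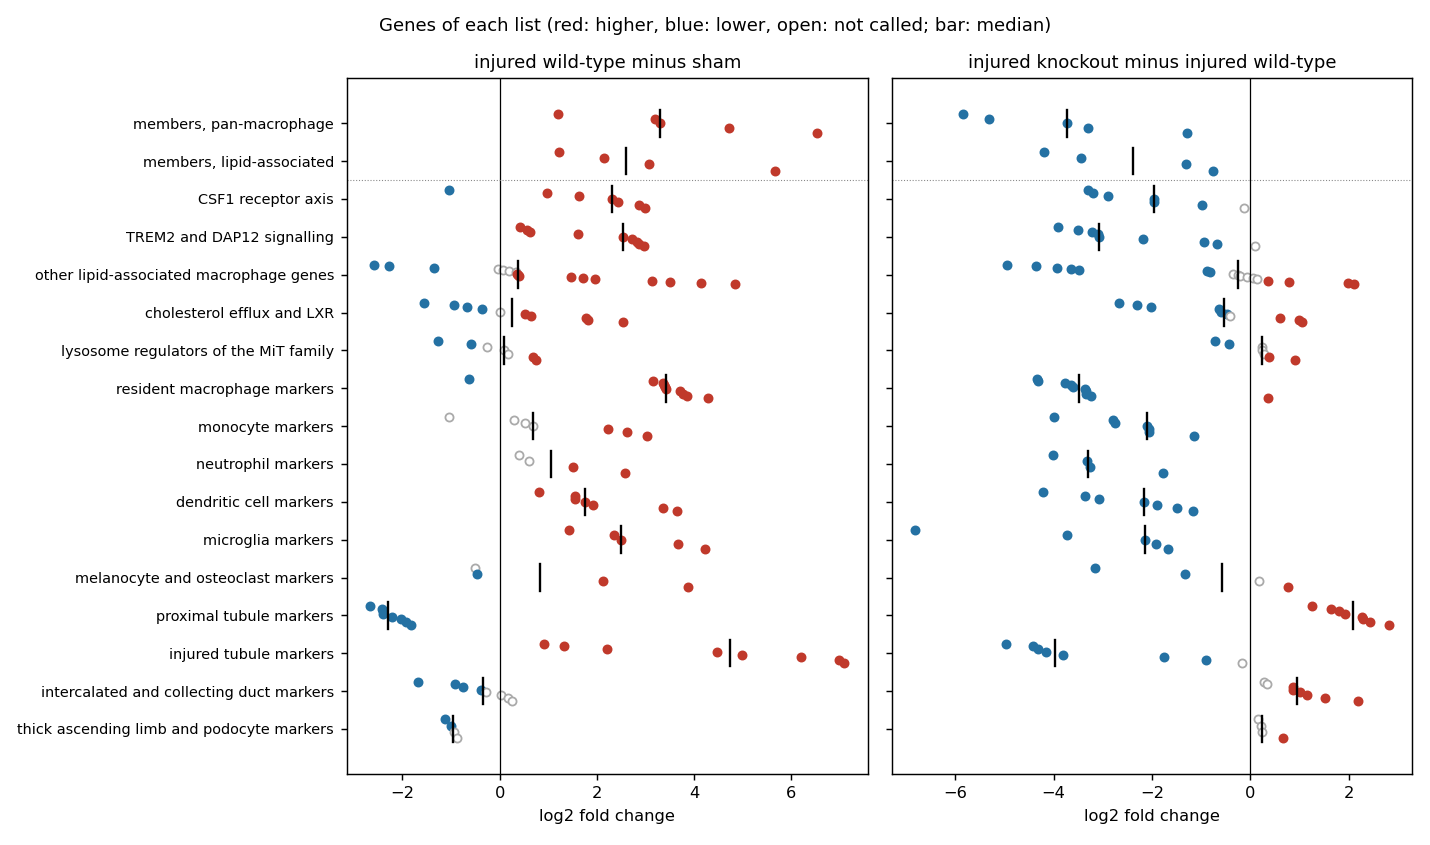
Log2 fold changes of the genes of each list, with injury (left) and in injured knockout against injured wild-type (right). Points are genes, red where called higher, blue where called lower and open where not called, and bars are list medians. The macrophage, CSF1 receptor and DAP12 lists lie mostly right of 0 with injury and left of 0 in the knockout, while the cholesterol and MITF family lists spread to both sides.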

How the data were processed

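RNA-seq of whole mouse kidney was analysed in 9 libraries, 3 each of sham wild-type, injured wild-type and injured Pfkfb3 knockout mice. The deposited values are raw counts per Ensembl gene, one column per library. Per the labels, libraries were made from total RNA with the NEBNext Ultra kit, and the submitters' processing notes name mm10 and DESeq2 1.16.1. With the aligner, counter, annotation and strandedness not given in the sources used here, overlapping or near-identical genes may share reads.

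The members and the gene lists were chosen with earlier results of these data known. A few listed genes are not reported here and are left out of the counts. Groups were taken from the labels. Of 56305 gene identifiers 55141 matched GENCODE M21, which gave names, positions and exon lengths. Genes were kept by edgeR's filterByExpr (15974 genes). Counts were scaled by TMM and fitted with edgeR 4.0.16 (R 4.3.3), with 1 term per group over all libraries, a quasi-likelihood F test for each of 3 comparisons and Benjamini-Hochberg adjustment at 0.05. Standard errors are the log2 fold change over the square root of F. The fit was tested on simulated data. Ratios between genes were tested with 2-sided exact permutation tests. RPKM used the union of exons. Likeness was computed over genes averaging 5 CPM or more, with a prior count of 2. Promoter windows of 300 bases came from RefSeq and were searched for 7 of 10 members. Entries on chromosome 18, where Csf1r lies, were left out of the members' search. The printed parts lie before the start in both RefSeq and GENCODE, except in Fcrls and the last bases of Gpnmb. Alternatives were other scalings, filters and tools (DESeq2 1.42.0, limma 3.58.1), fits of 2 groups only, and leaving out each library.

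In each list and comparison the naming rule took the 2 called genes with the highest mean level and any called gene that moved against the majority. The text prints most of these for the macrophage lists and only some for the other lists and against sham. Tyrobp, Syk, Itgax, Clec7a, Abca1, Abcg1, Pltp, Mitf, Tfec, the melanocyte markers and Nphs1 fall outside this rule and were chosen after their values were seen. No 2 libraries of a group agreed within counting noise (chi-square of 12.5 to 29.3 per gene). The precision at these totals is that of the counts given, and counts under about 10 per library carry large errors.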

Additional observations from a re-analysis of the deposited data

How the results depend on the processing

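With injury and in the knockout against injured wild-type, the 9 macrophage genes kept their direction and their call under every alternative run: the scalings (DESeq2 size factors, library size alone, and TMM after dropping the 20 most abundant genes), the tools (limma-voom and the DESeq2 Wald test), the filters (none, or 1 CPM on average), fits of 2 groups, the replicate block and leaving out each library. Library size alone moved the knockout values of Adgre1 to -4.31 and of Lyz2 to -5.89. The number of genes called in the knockout against sham was 1 with library size alone, 1 with limma-voom, 1 in the fit of 2 groups and 4 with no low-count filter, and from 0 to 2 on leaving out 1 library. Signs turned for values that were not called: on leaving out 1 library, Csf1r against sham ranged from -0.20 to 0.023, and Cd68 from -0.28 to 0.016. With the mean of Adgre1, Csf1r and Cd68 as reference, the injury ratios of Cd68 and Apoe turned to 0.64 and 0.51 and their knockout ratios to -0.50 and -0.67. That reference contains Cd68 and the smaller change of Csf1r. The knockout ratio of Apoe to Adgre1 ranged from -0.076 (without knockout library 3) to 0.62 on leaving out 1 library. The missing share of the rise of Cd68 ranged from 99.8% to 102% on leaving out 1 library.

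Library size alone turned the injury values of Nr1h2 (0.18), Acp5 (0.079) and Atp6v1b1 (0.15) and the knockout values of Cd63 (-0.23) and Mertk (-0.23). It also ended the calls of Mertk (-0.077), Mylip (-0.15), Aqp3 (-0.20) and Slc12a1 (-0.44) with injury. In the knockout it ended those of Lipa (0.20), Nr1h2 (0.020), Fnip2 (0.32), Acp5 (0.17), Aqp2 (0.56) and Slc12a1 (0.086). The causes were not tested. The numbers of the libraries were not taken to pair them, since the deviations of libraries with the same number correlated at -0.119 to 0.063 over 9 pairs. With the number as a replicate block Adgre1 was at 3.32 with injury and -3.74 in the knockout, and against sham Gpnmb was at 1.46 (edgeR adjusted p = 0.0401) and Lgals3 at 0.80 (edgeR adjusted p = 0.0330). The block changed no call among the 9 genes. Depth limits Fcrls and Gpnmb, with at most 13 counts per library outside the injured wild-type group.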

Other observations

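Some markers of blood-borne myeloid cells were lower in the injured knockout than in sham, groups that differ in both genotype and injury. Of all tested genes 9.48% were called lower there and 8.13% higher. Of 4 tested neutrophil markers 3 were called lower than in sham, including the calcium-binding protein genes S100a8 (-2.72) and S100a9 (-1.37), with summed levels of 10.6 to 12.9 CPM in sham, 23.7 to 36.5 CPM in injured wild-type and 2.94 to 5.84 CPM in injured knockout libraries. Of 7 monocyte markers 4 were called lower and 1 higher, among them the chemokine receptor gene Ccr2 (-0.96), at 14.5, 12.9 and 9.57 CPM in sham and 3.87, 7.98 and 7.21 CPM in injured knockout libraries, while Plac8 was higher (0.58). Without knockout library 1, the counts called lower were 3 for neutrophil and 4 for monocyte markers. The call of S100a9 was lost in 7 of the alternatives and that of Plac8 in 8, limma-voom and the replicate block among both, and that of Ccr2 in 2, without sham library 1 (edgeR adjusted p = 0.0594) or 2 (edgeR adjusted p = 0.0781). The 10 resident macrophage markers had summed levels of 137 to 165 CPM in sham and 112 to 152 CPM in injured knockout libraries, and 0 were called. Mertk, which went against that list, made up a large part of both sums. It stood at 63.4 to 76.5 CPM in sham and 48.8 to 67.9 CPM in injured knockout libraries. These sums therefore do not separate resident from blood-borne cells.

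Among all tested genes 29.5% were called higher with injury and 28.1% lower in the knockout against injured wild-type. Of 5 genes that mark microglia in the brain, 5 were called higher with injury and 5 lower in the knockout against injured wild-type. They include Olfml3 (2.50 and -1.92), a secreted protein gene. Tmem119, a membrane protein gene, moved the same way (2.35 and -2.13). Gpr34, a receptor gene, was at 0.410 to 0.595 CPM in sham and 5.46 to 7.35 CPM in injured wild-type libraries. In injured knockout libraries it was at most 0.0753 CPM, which is 1 count. Which kidney cells expressed these genes was not tested.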
